A study of Saccharomyces cerevisiae with 5 samples.

Results

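The 53 genes described here encode ribosome biogenesis factors of budding yeast, and were chosen by name alone: every annotated coding sequence (CDS) whose standard name is UTP, NOP or RRP followed by a number. They comprise 18 UTP, 17 NOP and 18 RRP genes among 6697 CDS. UTP genes were named for proteins found with the U3 snoRNA, NOP for nucleolar protein and RRP for ribosomal RNA processing. Transcript levels came from poly(A)+ RNAseq of BY4741, a haploid laboratory strain (MATa his3Δ1 leu2Δ0 met15Δ0 ura3Δ0) grown to mid-log phase in YPD, a rich glucose medium. One culture was left untreated and the other was given 1 mM CuSO4 for 4 hours. Each condition had 1 library, so no value has a replicate error and no difference was tested; the intervals given below cover counting error only.

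Ribosome assembly begins in the nucleolus, where RNA polymerase I transcribes a long precursor RNA that is folded, modified and cut into the rRNAs of the small and large subunits. Small nucleolar ribonucleoproteins (snoRNPs) guide modification and folding, the small subunit processome gathers on the leading part of the precursor, and the RNA exosome trims and degrades cleaved fragments. In yeast the genes for these factors form a regulon that is transcribed in proportion to growth and turned down in many stresses. Their promoters commonly hold the PAC element, bound by the repressors Dot6 and Tod6, and the RRPE element, bound by Stb3.

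The libraries held 5572698 (untreated) and 5749810 (CuSO4) reads on CDS, recovered as whole numbers from the deposited values. The deleted marker genes LEU2, MET15 and URA3 had 0 reads in both libraries, which allows up to 3 reads each, while HIS3, whose his3Δ1 allele is a partial deletion, had 291 and 309. The a-specific gene STE2 had 4433 and 5320 reads against 11 and 7 for the alpha-specific STE3. Of the other alpha-specific genes, MF(ALPHA)2 had 46 and 30 reads and MF(ALPHA)1 had 0 in both libraries. The metallothionein gene CUP1-1 was higher with CuSO4, at 496 and 4042 reads.

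The promoters of the 53 genes were searched on both strands for GATGAG, the core of PAC, and AAAAATTT, the core of RRPE. The window ran from 250 bp before to 50 bp after each CDS start. PAC was found in 44 of the 53 promoters (83.0%), against 20.2% of all 6668 promoters of that length. RRPE was found in 39 (73.6%), against 13.3%, and both in 33 (62.3%), against 5.13%. The following 4 promoters show the usual arrangement, a member with repeated PAC, the only member whose reads were higher with CuSO4 beyond counting error, and a member with neither motif. Each is the 200 bp before the start codon in the RefSeq sequence of R64, printed in the direction of transcription with matches to either motif, on either strand, in capitals.
UTP21 (chrXII:937234-937433, minus strand): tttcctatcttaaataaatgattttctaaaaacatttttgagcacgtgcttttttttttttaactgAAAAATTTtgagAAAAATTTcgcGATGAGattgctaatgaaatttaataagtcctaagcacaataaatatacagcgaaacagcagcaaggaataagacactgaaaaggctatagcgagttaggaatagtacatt
NOP7 (chrVII:695217-695416, plus strand): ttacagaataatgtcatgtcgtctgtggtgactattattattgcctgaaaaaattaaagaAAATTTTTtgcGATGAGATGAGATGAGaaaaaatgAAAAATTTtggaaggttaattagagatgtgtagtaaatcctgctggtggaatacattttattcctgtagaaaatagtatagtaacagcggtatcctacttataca
RRP14 (chrXI:282330-282529, minus strand): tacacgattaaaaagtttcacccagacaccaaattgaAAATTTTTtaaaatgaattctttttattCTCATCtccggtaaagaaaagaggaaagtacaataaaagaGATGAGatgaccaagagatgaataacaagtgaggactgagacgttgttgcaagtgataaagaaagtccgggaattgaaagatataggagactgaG
RRP46 (chrVII:676343-676542, minus strand): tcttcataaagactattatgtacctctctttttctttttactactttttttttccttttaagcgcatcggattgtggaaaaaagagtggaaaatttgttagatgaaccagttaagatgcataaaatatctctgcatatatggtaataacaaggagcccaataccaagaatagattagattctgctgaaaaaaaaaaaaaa

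In UTP21, which encodes a WD-repeat protein of the small subunit processome, AAAAATTT began 134 and 122 bp before the start codon, with GATGAG downstream of both at 111 bp. In NOP7, a large subunit factor, GATGAG occurred 3 times in overlapping register, beginning 129, 124 and 119 bp before the start, between RRPE matches at 140 and 105 bp. RRP14 held a reverse RRPE match at 163 bp, a reverse PAC match at 135 bp and a forward one at 95 bp. Its lone capital G before the start codon begins a further match that runs into the CDS. RRP46, an exosome subunit, was with RRP45 and UTP22 one of the 3 members without either motif.

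The matches lay in a narrow zone. The median start of the 65 PAC matches was 119 bp before the start codon, with an interquartile range of 135 to 95 bp. For the 54 RRPE matches it was 134 bp, with a range of 156 to 118.5 bp. Among the 33 members with both motifs, the nearest pair had RRPE upstream of PAC in 30 (90.9%), compared with 192 of 309 other CDS with both (62.1%). The pair lay within 50 bp in 31 members (93.9%) and in 228 of the other CDS (73.8%). Those other CDS include ribosome biogenesis factors under other names. These positions describe where the letters occur and do not show that a factor was bound.

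**Figure D1:**
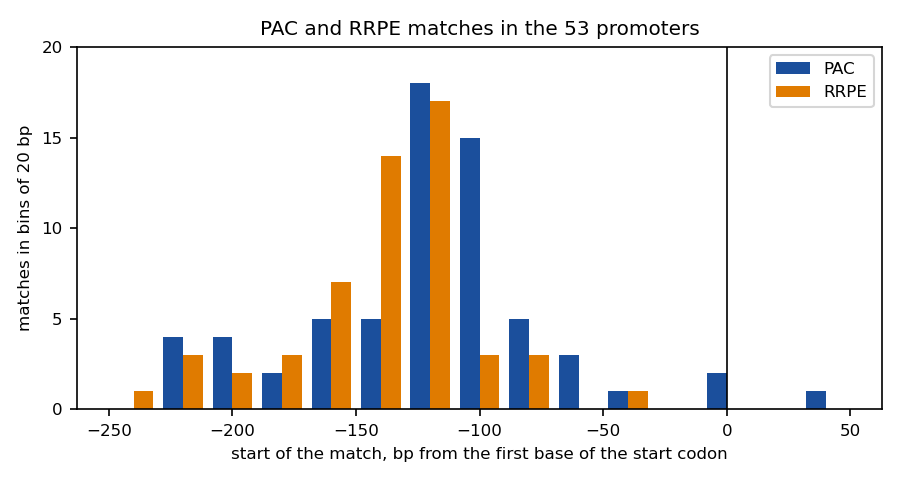
Start positions of PAC (GATGAG) and RRPE (AAAAATTT) matches relative to the start codon in the promoters of the 53 UTP, NOP and RRP genes, as the number of matches in bins of 20 bp. RRPE matches centre at 134 bp and PAC matches at 119 bp before the start codon.

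The motifs were unevenly spread over the roles. All 6 members in the UTP-A complex held RRPE and 5 held PAC. Of the 13 large subunit factors, 12 held PAC and 11 RRPE. The exosome genes had the fewest of the larger groups, with PAC in 3 of 7, RRPE in 3 and both in 1. The long forms were less common, GCGATGAG occurring in 24 members (45.3%, all promoters 3.63%) and GAAAAATTT in 25 (47.2%, all promoters 5.58%). The motifs were not particular to the 53 genes. Of 62 large subunit factors under other names, 54 held PAC (87.1%) and 45 both motifs (72.6%). Of 48 small subunit factors under other names, 45 held PAC (93.75%) and 39 both motifs (81.25%). Cytosolic ribosomal protein genes, which belong to a separate regulon, held PAC in 10.9% and both motifs in 0.725% of their 138 promoters.

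Levels are given as log2 reads per kb of CDS, the deposited scale. The 53 genes were moderately to highly expressed in untreated cells, with a median level of 8.93 against 8.01 over the 6078 CDS with at least 20 reads. All 53 passed that minimum, the fewest reads being 190 and 173 for NOP19. Ranked among all 6697 CDS, including those below that minimum, 52 of the 53 lay above the median level and 26 above the upper quartile. They spanned 4.72 on the log2 scale, or 26.4-fold, from UTP20 at 7.29 to NOP1 at 12.01. With CuSO4 the median level was 8.84, against 8.02 for all CDS, and the order of the genes was nearly the same (Pearson r = 0.994, Spearman rho = 0.983 across 53 genes of the same libraries, as a description).

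The highest levels were those of 4 snoRNP proteins. NOP1, the fibrillarin methyltransferase of box C/D snoRNPs, had 3923 reads untreated and 3804 with CuSO4, at levels of 12.01 and 11.92. NOP10, a small protein of the H/ACA particles that guide pseudouridylation, had 605 and 615 reads on a CDS of 177 nt, at 11.79 and 11.76. NOP56 and NOP58, the paired scaffold proteins of box C/D particles, stood at 11.43 and 10.95 in untreated cells. These 4 were the only members in the top decile of all CDS. RRP9, the protein specific to the U3 snoRNP, was the lowest of this group at 9.04.

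The complexes of the small subunit processome were lower and closer together. The 6 members in UTP-A, the subcomplex that binds the precursor earliest, ranged from 8.09 (UTP10) to 9.14 (UTP9) in untreated cells. The 4 members in UTP-B ranged only from 8.46 (UTP21) to 8.69 (UTP6). Of the UTP-C genes, RRP7 stood at 9.72, above RRP36 at 8.17 and UTP22 at 8.45. The remaining small subunit factors ran from 7.29 for UTP20, a very large scaffold protein with a CDS of 7482 nt, to 10.13 for NOP6, a small RNA-binding protein.

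The 7 exosome genes fell in a range of 8.20 to 9.23. RRP6, the nuclear exonuclease, was the lowest and RRP42, a subunit of the exosome ring, the highest. The 13 large subunit factors ran from 8.36 for NOP8 to 10.27 for NOP15, both nucleolar proteins with RNA recognition motifs. The remaining 3 genes encode factors used by both subunits, RRP5 at 8.46, RRP12 at 8.62 and RRP14 at 9.88.

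**Figure D2:**
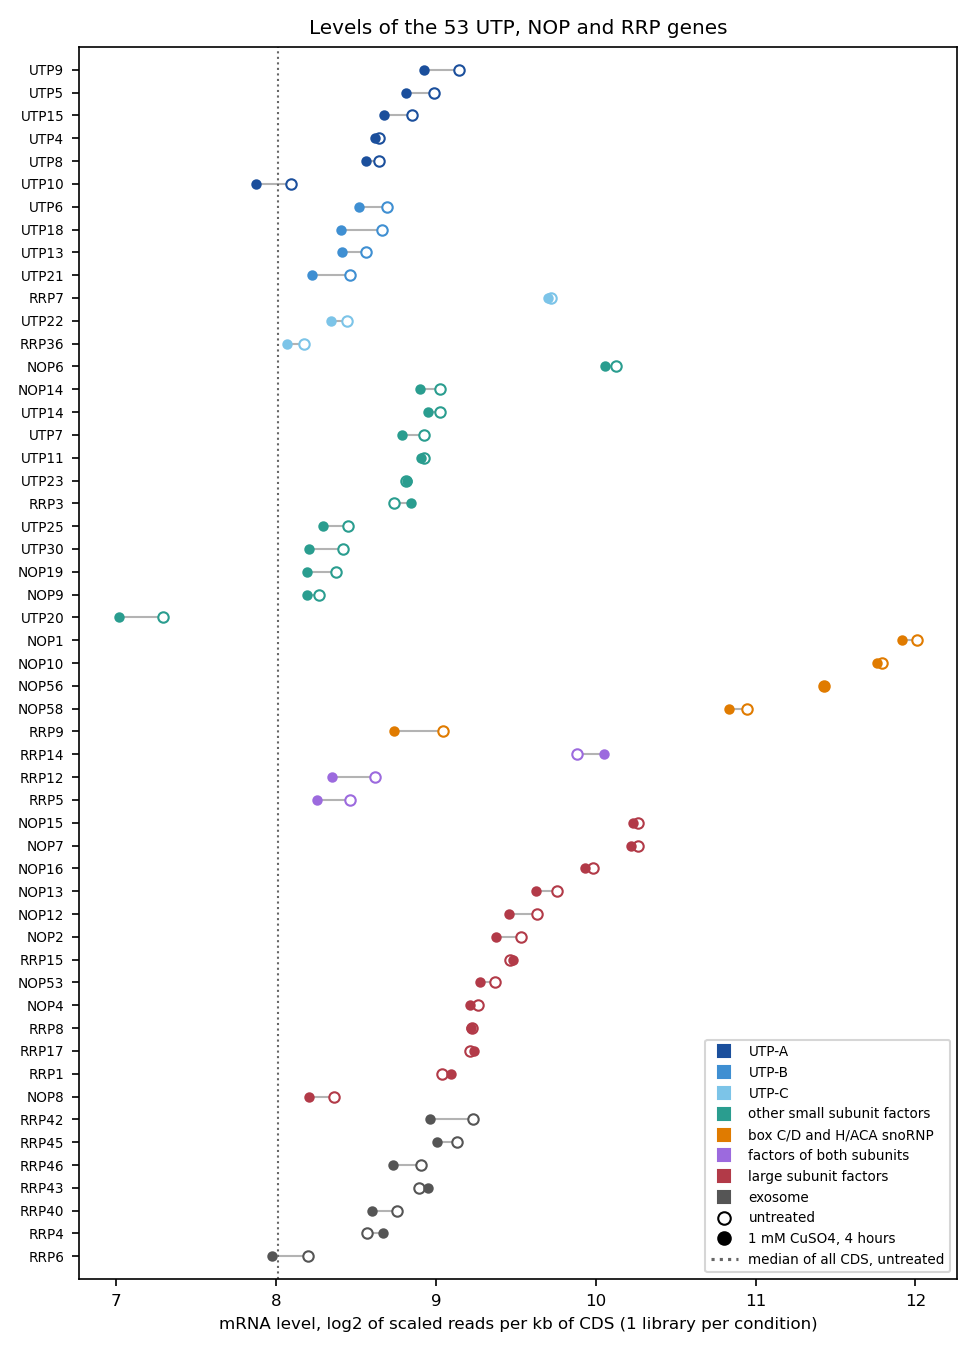
Level of each of the 53 genes (log2 reads per kb of CDS) in the untreated and CuSO4 libraries, 1 library each, ordered by role. The snoRNP genes NOP1, NOP10, NOP56 and NOP58 lie highest and UTP20 lowest, and each pair of points lies close together.

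With CuSO4 the genes as a set were slightly lower. The median log2 change, CuSO4 minus untreated, was -0.12 over the 53 genes (interquartile range -0.18 to -0.03), against 0.01 over all CDS (-0.10 to 0.13). In all, 44 of the 53 changes were below 0, whereas 2846 of 6078 were over all CDS. Their summed reads were 50848 untreated and 49053 with CuSO4, a share of 0.912% (95% Clopper-Pearson interval 0.905 to 0.920) and 0.853% (0.846 to 0.861) of all reads on CDS.

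The size of the change was small in every member. It ranged from -0.31 (RRP9) to 0.17 (RRP14), and no member was higher by 25% or more, against 7.80% of all CDS, or lower by 20% or more (the same fold downwards), against 4.43%. None was 2-fold higher or lower, against 0.526% and 0.658%. These shares over all CDS include CDS with as few as 20 reads, whose counting error is larger than that of the members. Among 3964 other CDS within the members' range of level, 192 were higher by 25% or more and 92 lower by 20% or more. Between the 5th and 95th percentiles of all CDS, at -0.30 and 0.40, lay 52 of the 53. At the same time 46 lay below the median of all CDS and 29 below its lower quartile, and 1 lay above its upper quartile.

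The 95% interval on the ratio of reads lay below 0 for 20 of the 53 (37.7%), against 10.1% of all CDS, and above 0 for 1, RRP14, against 11.6%. It included 0 for the remaining 32. The members had more reads than most CDS (median 734 untreated, against 316.5), which narrows their intervals. Among 3964 other CDS within the members' range of level, the interval lay below 0 for 10.7% and the median change was 0.01. That set had a median of 415 reads, so that it was matched in reads per kb and not in depth.

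**Figure D3:**
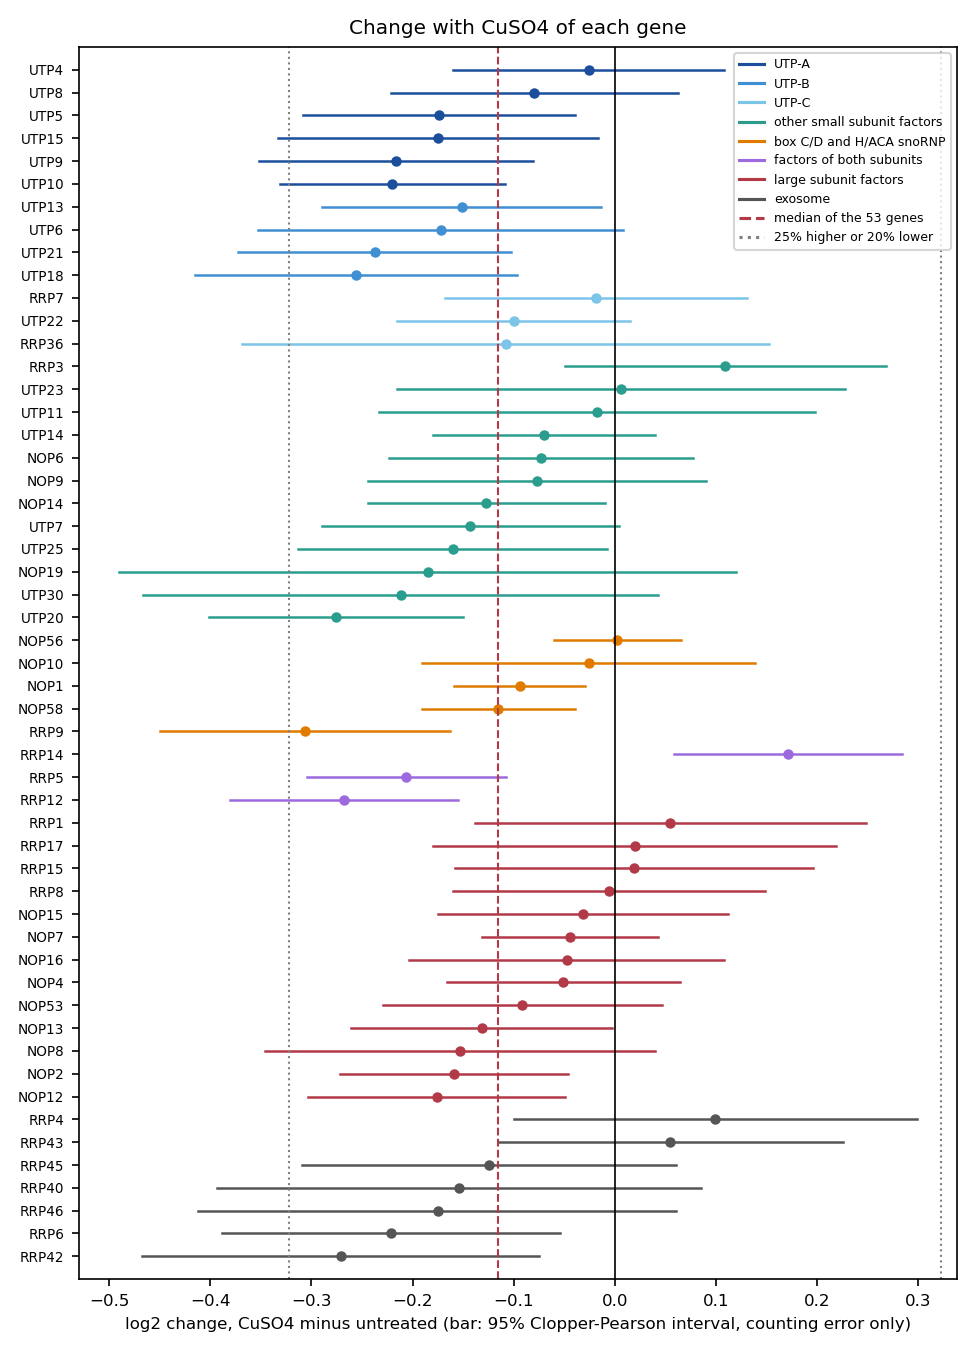
Log2 change, CuSO4 minus untreated, of each of the 53 genes with its 95% counting interval, grouped by role, with lines at 25% higher and 20% lower. No member's point passes either dotted line, and 20 intervals lie below 0 and 1, that of RRP14, above.

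Of the 10 members in the UTP-A and UTP-B complexes, 7 had an interval below 0 (70.0%, all CDS 10.1%). Members were chosen by name, so subunits of these complexes with other names are not counted here. All 10 values were below 0, with a median of -0.17. UTP10, a HEAT-repeat protein of UTP-A, had 1400 reads untreated and 1244 with CuSO4, a change of -0.22 (-0.33 to -0.11). UTP9 had 944 and 841 reads, a change of -0.22 (-0.35 to -0.08). Among the UTP-B members, UTP18 and UTP21 had the largest differences.

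UTP18, which brings the exosome's helicase to the processome, had 699 reads untreated and 606 with CuSO4, a change of -0.26 (-0.42 to -0.10). UTP21 had 960 and 843, a change of -0.24 (-0.37 to -0.10). UTP6 had 529 and 486, with an interval that included 0 (-0.35 to 0.01). Among the UTP-A and UTP-B members, UTP8 and UTP4, both of UTP-A, were the nearest to no change. Their changes were -0.08 (-0.22 to 0.06) and -0.03 (-0.16 to 0.11), and their intervals also included 0. The UTP-C genes, which act with casein kinase, had changes of -0.11 (RRP36), -0.10 (UTP22) and -0.02 (RRP7), all with intervals that included 0.

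Among the other 12 small subunit factors, 10 changes were below 0 and the median was -0.10. UTP20 had 1132 reads untreated and 968 with CuSO4, a change of -0.28 (-0.40 to -0.15), and was in both libraries the lowest member per kb. NOP14 and UTP25 also had intervals below 0, with changes of -0.13 and -0.16. RRP3, a DEAD-box protein, was among the 5 members with the highest changes at 620 and 692 reads, 0.11 (-0.05 to 0.27), within counting error of 0. NOP6, the most highly expressed of this group, had 734 and 722 reads, a change of -0.07 (-0.22 to 0.08).

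The snoRNP genes were divided. RRP9 had 878 reads untreated and 735 with CuSO4, a change of -0.31 (-0.45 to -0.16), the lowest of all 53. NOP1 and NOP58 had small differences beyond counting error, at -0.09 (-0.16 to -0.03) and -0.12 (-0.19 to -0.04). NOP56 had 4027 and 4175 reads, a change of 0.00 (-0.06 to 0.07), and NOP10 a change of -0.03 (-0.19 to 0.14).

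Of the 7 exosome genes, 5 had changes below 0 and the median was -0.15. RRP42 had 464 reads untreated and 398 with CuSO4, a change of -0.27 (-0.47 to -0.07), and RRP6 had 625 and 555, a change of -0.22 (-0.39 to -0.05). The remaining subunits were within counting error of 0. RRP4, an RNA-binding cap subunit, had 396 and 439 reads, a change of 0.10 (-0.10 to 0.30), and RRP43, of the ring, 546 and 587, a change of 0.05 (-0.12 to 0.23).

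Among the role groups of the members, the large subunit factors lay nearest to 0. This did not hold for the 62 large subunit factors under other names, whose median was -0.14. The median change of the members in this group was -0.05, with 10 of 13 below 0. The interval lay below 0 for NOP2, NOP12 and NOP13. NOP2, an rRNA methyltransferase, had 1331 reads untreated and 1234 with CuSO4, a change of -0.16 (-0.27 to -0.05). NOP12 had 1060 and 971, a change of -0.18 (-0.30 to -0.05). The most abundant of this group were close to no change, NOP15 at 789 and 799 reads, -0.03 (-0.18 to 0.11), and NOP7 at 2163 and 2171, -0.04 (-0.13 to 0.04).

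NOP8 had 462 reads untreated and 430 with CuSO4, a change of -0.15 whose interval included 0 (-0.35 to 0.04). RRP1, a conserved nucleolar factor, had 426 and 458, a change of 0.05 (-0.14 to 0.25). The 3 factors used by both subunits lay apart from each other. RRP5, an RNA-binding protein needed for cleavages on both branches of the pathway, had 1770 and 1588 reads, a change of -0.21 (-0.30 to -0.11). RRP12, an export factor, had 1398 and 1202, a change of -0.27 (-0.38 to -0.16). RRP14 had 1191 and 1388, a change of 0.17 (0.06 to 0.28). By name, the medians were -0.17 for UTP, -0.09 for NOP and -0.06 for RRP genes.

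Of the members, 8 overlap another annotated CDS, 7 of them on the opposite strand, and while the libraries were made with a directional kit, whether the counting used strand is not given in the sources used here. RRP14 is one: YKL083W, which overlaps it on the opposite strand by 511 bp, had 629 reads untreated and 724 with CuSO4, and its level of 10.05 was close to that of RRP14. RRP9 is another, and YPR136C on its opposite strand had 224 and 193 reads. Relative to their members, the untreated log2 levels of the 7 opposite-strand CDS ran from -0.74 (YPR142C, with RRP15) to 0.24 (YLR198C, with NOP56). If strand was not used, the reads of each such pair in the overlap cannot be told apart. The reads of YKL083W are therefore not shown to be a transcript separate from RRP14, and whether strand was used was not tested. A search of the genome found 0 members with a near-identical copy.

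Gene lists drawn up by function placed these values in the wider pathway. Of 62 large subunit factors under other names, 58 had changes below 0, with a median of -0.14, and 31 intervals lay below 0 (50.0%, all CDS 10.1%) and 0 above (all CDS 11.6%). Of 48 small subunit factors under other names, 44 were below 0, with a median of -0.15, and 21 intervals lay below 0 (43.8%, all CDS 10.1%) and 0 above (all CDS 11.6%). DHR2, an RNA helicase of the processome, was named after its value was seen: it had 334 reads untreated and 254 with CuSO4, a change of -0.44 (-0.69 to -0.20). The 31 subunits and factors of RNA polymerases I and III had a median of -0.09, with 21 below 0. Other exosome subunits and cofactors (15 genes) were near 0 at -0.01, and other snoRNP proteins (13 genes) at -0.04.

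The cytosolic ribosomal protein genes did not show the same direction. Their median change was 0.04, with 97 of 138 above 0 and 41 below, and 58 intervals above 0 (42.0%, all CDS 11.6%) and 20 below (14.5%, all CDS 10.1%). Their intervals are far narrower than those of most CDS, with a median of 6634 reads untreated. RPS6B, the only one past 2-fold (lower, all CDS 0.658%), is near-identical to RPS6A, so that the split of reads between the pair is uncertain. Among 28 targets of the stress factors Msn2 and Msn4, 27 had changes above 0 and the median was 0.36. In this list 16 were higher by 25% or more (all CDS 7.80%). DDR2, HSP12 and SOL4 were more than 2-fold higher (all CDS 0.526%). HSP12, a membrane-protective stress protein, had 212 reads untreated and 505 with CuSO4, and DDR2 22 and 62, a change of 1.44 (0.72 to 2.22).

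**Figure D4:**
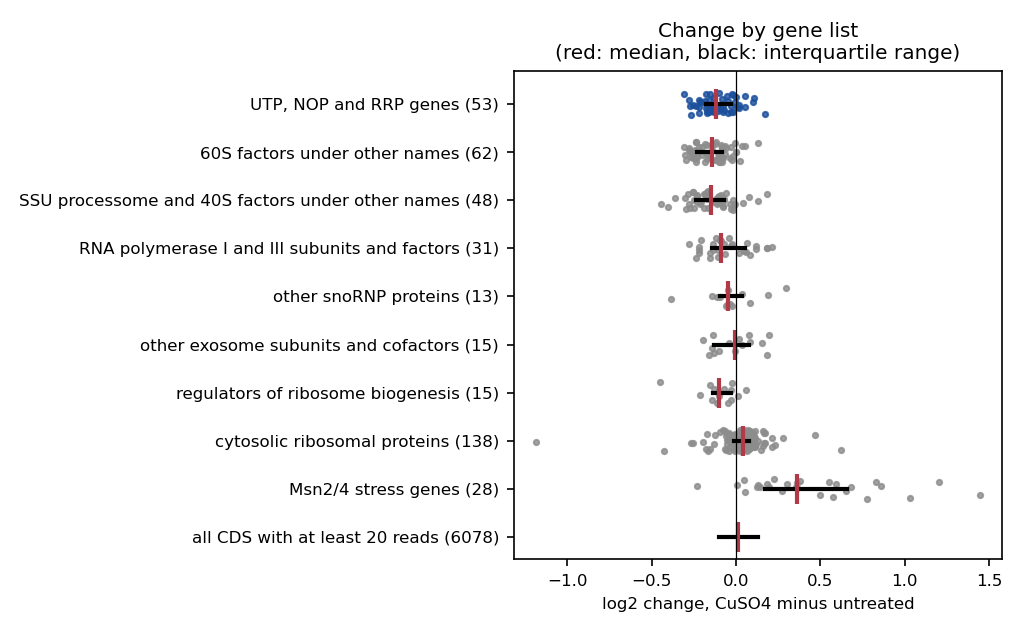
Log2 change, CuSO4 minus untreated, of each gene in the UTP, NOP and RRP set and in 8 gene lists, with the median in red and the interquartile range in black, beside the same for all CDS. The medians are -0.12 for the 53 genes, -0.14 and -0.15 for the large and small subunit factors under other names, 0.04 for ribosomal proteins and 0.36 for Msn2/4 stress genes.

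Of 15 regulators of ribosome biogenesis, 13 had changes below 0, the median was -0.10 and 2 intervals lay below 0 (13.3%), a share near the 10.1% of all CDS. These were TOD6 and KOG1. TOD6, a PAC-binding repressor, had 436 reads untreated and 330 with CuSO4, a change of -0.45 (-0.66 to -0.24), lower than any of the 53 members. KOG1, a subunit of the TORC1 kinase complex, had a change of -0.21 (-0.40 to -0.02). The activator SFP1 (-0.02), the kinase gene SCH9 (-0.15) and the repressor genes DOT6 (-0.07) and STB3 (-0.03) had intervals that included 0. These are transcript levels, and the activity of these proteins was not measured.

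By motif, the median change was -0.10 in the 44 members with PAC, of which 35 were below 0, and -0.17 in the 9 without it, all below 0. It was -0.13 in the 39 members with RRPE and -0.10 in the 14 without. Members with both motifs had a median of -0.12 (33 genes), as had the 3 members with neither, and these differences were not tested. Other CDS with PAC had a median of -0.02 and those without it 0.02.

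Longer CDS had lower changes, among the members and among other CDS. For members the correlation with log2 CDS length was r = -0.39 (rho = -0.39, 53 genes), and for other CDS r = -0.19 (rho = -0.25, 6025 genes). Genes of 1 pair of libraries share depth and are not replicates. The members were longer than most (median 1455 nt, all CDS 1086 nt). All 15 members of at least 2000 nt had changes below 0, with a median of -0.15 against -0.05 for other CDS of that length. From 1000 to 1999 nt the medians were -0.14 (20 members) and 0.00, and below 1000 nt -0.06 (18 members) and 0.06. The members' median was the lower in each class of length. The part that length plays in the change was not tested.

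**Figure D5:**
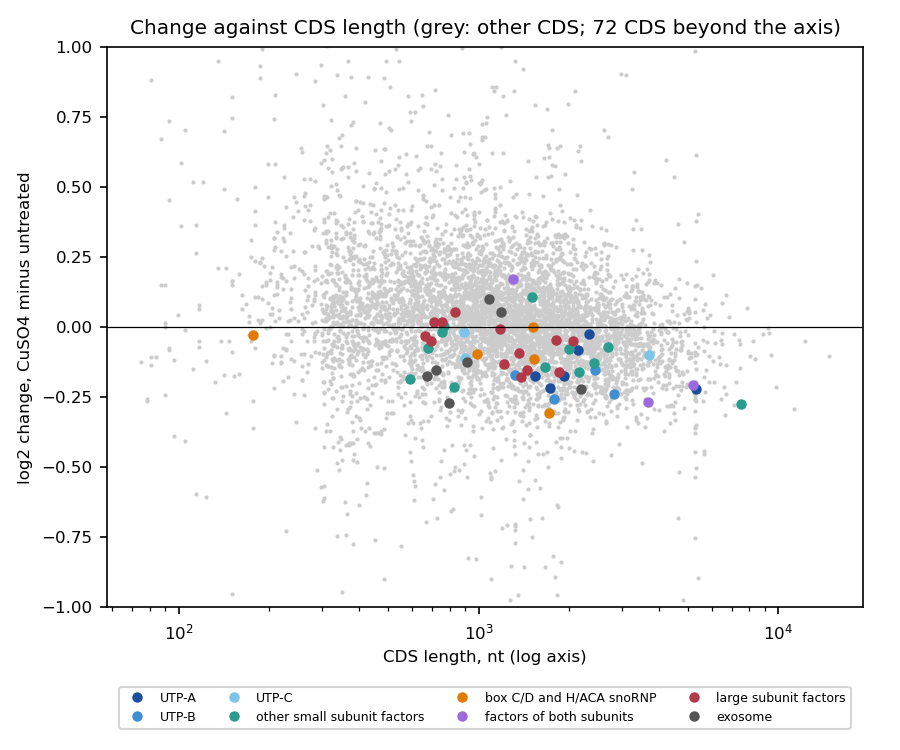
Log2 change, CuSO4 minus untreated, against CDS length in nt (log axis) for the 53 genes, coloured by role, and for other CDS in grey, with 72 CDS beyond the vertical axis. Members lie mostly below 0 and the longest are all below it.

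The genes were also set against the γH2A ChIPseq peaks, which mark chromatin with phosphorylated H2A, a modification made by checkpoint kinases at damaged or stalled replication sites. Of the 53 genes, 0 had a peak in the 1000 bp upstream of the start, against 6.64% of all CDS. That was not particular to them. Peaks were also found at 0 of 62 large and 0 of 48 small subunit factors under other names. The count was 0 of 138 ribosomal protein genes, 1 of 31 RNA polymerase I and III genes and 2 of 28 Msn2/4 targets. The paper reports unusually low expression in YPD of genes with such peaks, and the share over all CDS is not matched for level. The nearest was 1511 bp from the start codon of UTP7, a peak at chrV:327447-328076 with an enrichment of 2.15-fold. The next were 2647 bp from RRP45 and 4443 bp from UTP6. The members lie on 14 of the 16 nuclear chromosomes, and none is within 20 kb of a chromosome end.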

How the data were processed

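The authors mapped poly(A)+ reads to R64-2-1 with HISAT2 2.0.5, used SeqMonk to count them per CDS, brought the smaller library to the size of the larger and divided by CDS length; the deposited values are log2 reads per kb. CDS without reads stand at 0.9 reads. From that floor the library scale (1.04 untreated, 1 CuSO4) was taken and whole reads were recovered for 99.94% of untreated and 99.98% of CuSO4 values (within 0.05 of a whole number). 131 and 125 CDS had no read, and a count of 0 allows 3.

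For ChIPseq the authors mapped reads with Bowtie 2 2.2.5, used MACS2 for peak calling and deposited peaks of 2-fold enrichment or more, after taking out by eye those they judged artifacts. The 240 deposited peaks carry a pileup signal, a fold enrichment (a ratio to the control level) and a -log10 p-value and q-value; the fold enrichment and positions were used. The list is labelled for the ChIP of CuSO4-treated cells and the input as well as for untreated cells, and the legend in the paper's supplement describes unstressed cells. The ChIP values with CuSO4 are not analysed here.

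The change is the CuSO4 minus the untreated log2 value, its interval is a 95% Clopper-Pearson interval on the share of the pair's reads in the CuSO4 library, and counts are over CDS where 1 or both libraries had at least 20 reads. An upstream peak is one with at least 1 bp in the 1000 bp window. With 1 library per condition no test between conditions was made. The change and its interval were tested on read counts simulated with counting error only, the error that the interval assumes. The recovery of whole reads was not part of that test. Gene names and promoter sequences come from the RefSeq R64 annotation, in which 6009 of 6014 matched CDS (99.9%) have the same coordinates as in the files, among them all 53 members. Python 3.11.15, pandas 2.3.3 and scipy 1.17.1 were used.

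The members, lists, thresholds and alternatives were chosen with earlier results of these data known. The members with values in full are the highest and lowest of each role group by untreated level and the 5 largest changes in each direction; others are given as examples of their group, and NOP7 and RRP46 were picked for their promoters. Outside the members, the rule named list genes past 2-fold, the regulators and the strain markers. Only some of the regulators and markers are given by name. Alternatives were other scalings, minimum reads, fold thresholds, added reads, summed reads, no division by length, sets without overlapping or exosome genes, other peak windows and enrichment, and longer motifs.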

Additional observations from a re-analysis of the deposited data

How the results depend on the processing

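No paired analysis was possible because there is only 1 library for each condition. Of 50 alternative values, 41 were the same within the limits set and 9 moved. Counts that were 0 and stayed 0 are among those called the same. A reversal was defined only for the median change, which stayed below 0 in every alternative. The median change of the members was between -0.13 (without the 8 that overlap another CDS) and -0.10 (without CDS of at least 2000 nt, with summed reads, with reads scaled without ribosomal protein CDS and without exosome genes). Without those overlapping members, the count of intervals above 0 fell from 1 to 0, and the median level was 8.85 untreated and 8.79 with CuSO4. Without CDS of at least 2000 nt, which was tried only after seeing the data, 11 of 38 members had intervals below 0, against 7.41% of all CDS. At a 1.2-fold threshold 4 members were lower, against 6.70% of all CDS, where 0 were at the main threshold of 20% lower. Without division by length the median level was 9.57 untreated (all CDS 8.36) and 9.52 with CuSO4 (8.37). The long motif forms were found in 24 (PAC) and 25 (RRPE) members. With 1 library per condition, a difference between cultures unrelated to copper cannot be told apart from the treatment. Poly(A)+ levels are relative to the whole library, so fewer transcripts in every gene would not be seen.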

Other observations

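The upstream neighbours of the members gave a comparison within the same stretch of genome. Of the 53 genes, 25 have a neighbour transcribed divergently from the same intergenic region, with a median gap of 362 bp (222 to 2117) between the CDS. The neighbours had a median log2 change of 0.06, with 9 of 25 below 0, against 0.01 and 46.8% over all CDS. The members opposite them had a median of -0.13, with 19 of 25 below 0. The member was lower than its neighbour in 20 of the 25 pairs. Of the neighbours, 5 had intervals above 0 (all CDS 11.6%) and 1 below (all CDS 10.1%). NOP7 had a change of -0.04 and its neighbour GTF1, a gene for a subunit of the mitochondrial amidotransferase, 0.35 (0.07 to 0.63) at 187 and 246 reads. RRP12 had -0.27 and its neighbour MRPS16, a mitochondrial ribosomal protein gene, 0.29 (0.04 to 0.53) at 245 and 309 reads. The member was not the lower in 5 pairs, those of UTP25, RRP46, RRP3, RRP4 and RRP14. Some neighbours belong to the gene lists above. The neighbour of RRP3 is SSF1, one of the large subunit factors under other names, with a change of -0.12 (-0.29 to 0.04). Those of UTP6 and RRP5 are the ribosomal protein genes RPS18A and RPS10B. UTP25 had -0.16 and its neighbour ICE2, a gene for an endoplasmic reticulum membrane protein, -0.34 (-0.54 to -0.14) at 455 and 372 reads. RRP14 had 0.17 and its neighbour TEF4, a translation elongation factor gene, -0.01 (-0.05 to 0.03) at 11023 and 11334 reads. The pairs of NOP7, RRP12, UTP25 and RRP14 were chosen after their values were seen, and no difference between members and neighbours was tested.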
